A study of Homo sapiens with 4 samples.

Results

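Replication-dependent histone genes were examined in DAOY, an established human medulloblastoma cell line, after lowering ZFX, a zinc finger transcription factor, with short hairpin RNAs (shRNAs). They were taken as every gene whose symbol was H1- followed by 1 to 5, or H2AC, H2BC, H3C or H4C followed by digits only, and which had a probe set listed with that 1 symbol. This gave 56 of 18417 genes with such a probe set: 5 linker histone H1 genes, 14 H2A, 16 H2B, 8 H3 and 13 H4 genes. Another 12 genes fit the symbol rule but were read only by probe sets that carry several symbols, and these are no members. The hairpins are named H2, H3 and H4, like histone classes, so a hairpin is always called a hairpin below.

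All cells were transduced with lentivirus for 16 to 24 hours, recovered for 48 hours and were then put under 2 ug/mL puromycin, with RNA taken about 48 hours into selection. The knockdown group held 3 arrays, 1 for each of the anti-ZFX hairpins H2, H3 and H4, and the control group held 1 array of cells with a scrambled hairpin. Both groups thus carried a lentivirus and the drug, and no untransduced cells were analysed here. Nothing says that a transduction was repeated, so p-values measure only the spread between these arrays. Values are intensities of 1 probe set per gene, set by the authors with RMA, and differences are log2 intensity with a hairpin minus log2 intensity with the scrambled hairpin. Mean differences are given ± SD over the 3 hairpins, which leaves out the error of the lone scrambled array. The median intensity over all probe sets ranged from 226.0 to 232.3 among the arrays. In such bulk RNA, fewer cells in S phase cannot be told apart from less histone mRNA per cell.

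Histones are the proteins around which DNA is wound. A nucleosome core holds a tetramer of H3 and H4 and a pair of H2A-H2B dimers, and H1 binds the linker DNA between cores. Replication-dependent histone genes lie in clusters, are transcribed mainly in S phase when new DNA needs packing, and give mRNAs that usually end in a conserved stem-loop in place of a poly(A) tail. Many copies encode the same or nearly the same protein, so probes of 1 gene can read mRNA of others.

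The targeted gene checked the labels: ZFX read 744.9, 749.6 and 995.6 with hairpins H2, H3 and H4 and 1430 with the scrambled hairpin. Of 11 cerebellar and medulloblastoma lineage markers on the array, 10 were above the intensity filter used here (mean log2 intensity 6.78, the 25th percentile of genes). ZIC2 at 10.21 and PTCH1 at 10.44 were the brightest. BARHL1 (7.67), EOMES (7.41) and MYCN (7.14) were dim, ATOH1, at 6.82, was just above the filter, and GLI1 was below it. Of 6 markers of leukocytes, endothelium, epithelium and astrocytes, only GFAP passed the filter (7.49), and it was brighter than EOMES, MYCN and ATOH1.

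The promoters of the histone genes showed class-specific features that the choice of members did not use. Of the 56 genes, 51 matched the RefSeq promoter table (build GRCh38.p14), and the 250 bases before each start site were searched on both strands for 4 short motifs. Matches of different motifs were counted separately even where letters overlapped, and a match is a description of the letters, not of binding. Shown first are H1-2, H2AC25, H3C10 and H4C4, each with the lowest mean difference of its class among tested genes, H2BC7 and H2BC5, the 2 highest of theirs, and H4C14, all chosen after their values were seen. H4C14 is the gene whose probe set could not be told from that of H4C15. Capitals mark any of the 4 motifs on either strand, and each sequence runs 5′ to 3′ on the gene's strand up to the base before the start site.
H1-2: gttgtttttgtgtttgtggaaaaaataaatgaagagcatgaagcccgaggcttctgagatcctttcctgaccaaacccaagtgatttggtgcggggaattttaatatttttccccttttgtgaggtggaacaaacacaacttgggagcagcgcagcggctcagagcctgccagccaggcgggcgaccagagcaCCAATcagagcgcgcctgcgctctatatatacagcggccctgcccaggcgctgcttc
H2AC25: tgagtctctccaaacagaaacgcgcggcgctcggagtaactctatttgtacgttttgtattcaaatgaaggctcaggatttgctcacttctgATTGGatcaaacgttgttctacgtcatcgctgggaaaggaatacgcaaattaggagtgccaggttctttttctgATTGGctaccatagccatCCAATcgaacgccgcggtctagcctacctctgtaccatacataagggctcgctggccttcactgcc
H2BC5: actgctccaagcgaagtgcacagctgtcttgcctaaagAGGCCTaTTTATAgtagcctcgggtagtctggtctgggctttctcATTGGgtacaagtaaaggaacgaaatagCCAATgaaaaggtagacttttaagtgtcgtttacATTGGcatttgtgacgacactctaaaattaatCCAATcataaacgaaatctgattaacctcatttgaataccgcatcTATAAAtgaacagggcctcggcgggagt
H2BC7: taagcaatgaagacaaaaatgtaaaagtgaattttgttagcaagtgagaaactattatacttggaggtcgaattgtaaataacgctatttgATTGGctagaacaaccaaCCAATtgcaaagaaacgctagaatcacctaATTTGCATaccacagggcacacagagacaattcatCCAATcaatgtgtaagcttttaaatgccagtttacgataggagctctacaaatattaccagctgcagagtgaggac
H3C10: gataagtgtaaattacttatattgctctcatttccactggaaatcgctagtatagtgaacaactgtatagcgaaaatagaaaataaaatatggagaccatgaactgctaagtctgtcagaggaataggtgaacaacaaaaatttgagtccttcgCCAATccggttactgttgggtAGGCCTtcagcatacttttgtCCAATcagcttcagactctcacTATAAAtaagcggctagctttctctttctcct
H4C4: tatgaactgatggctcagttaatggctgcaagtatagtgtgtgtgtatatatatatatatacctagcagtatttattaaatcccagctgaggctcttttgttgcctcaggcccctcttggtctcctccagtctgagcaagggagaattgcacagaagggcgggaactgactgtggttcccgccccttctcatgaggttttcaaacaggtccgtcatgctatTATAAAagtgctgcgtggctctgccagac
H4C14: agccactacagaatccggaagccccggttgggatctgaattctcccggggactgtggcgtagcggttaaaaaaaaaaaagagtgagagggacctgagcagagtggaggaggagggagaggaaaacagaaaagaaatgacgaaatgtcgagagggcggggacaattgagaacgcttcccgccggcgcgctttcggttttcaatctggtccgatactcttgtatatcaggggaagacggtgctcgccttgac

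In GRCh38.p14 these windows are chr6:26056471-26056720 (minus strand, H1-2), chr1:228457874-228458123 (minus strand, H2AC25), chr6:26157871-26158120 (plus strand, H2BC5), chr6:26199266-26199515 (plus strand, H2BC7), chr6:27809801-27810050 (plus strand, H3C10), chr6:26189113-26189362 (minus strand, H4C4) and chr1:149832407-149832656 (plus strand, H4C14). The TATA box, searched as TATAAA, was present in 34 of 51 histone promoters (66.7%) and in 11.1% of the 27305 promoters of the table. Matches at any position counted. The only match of H2BC4, for example, lay at -220 from the start site on the opposite strand. The CCAAT box, searched as CCAAT and bound by NF-Y, was in 43 of 51 (84.3%) against 33.0% of all promoters. All promoters of the H1, H2A, H2B and H3 classes that were in the table held it, but only 3 of 11 H4 promoters did (27.3%). The octamer, searched as ATTTGCAT and known from H2B promoters as a site of POU2F1, was in 13 of 16 H2B promoters (81.2%) and 10 of 13 H2A promoters (76.9%), in 0 of the 5 H1, 6 H3 and 11 H4 promoters, and in 1.66% of all promoters. In the sequences above, the octamer stands in H2BC7 alone, and the H4C14 window holds none of the 4 motifs. The core of the known ZFX motif, searched as AGGCCT, which reads the same on both strands, was in 5 histone promoters (9.8%) and in 9.24% of all promoters.

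**Figure D1:**
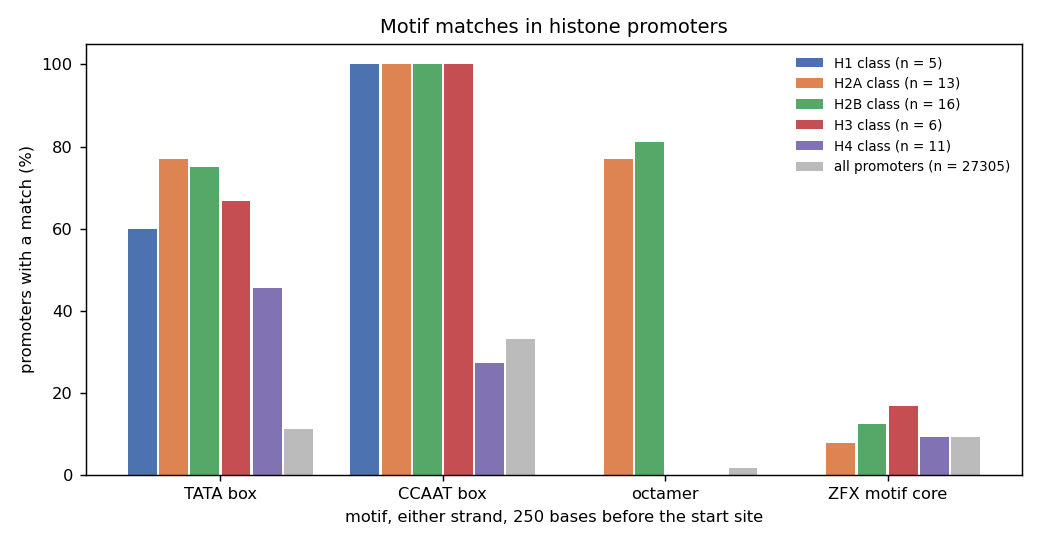
Share of promoters (%) with each of 4 motifs on either strand in the 250 bases before the start site, for 5 histone classes and all 27305 promoters (bars, n in the legend). The octamer stands out in the H2A and H2B classes, whose windows partly cover the same DNA, and H4 promoters mostly lack the CCAAT box.

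H4C14 and H4C15 had identical promoters over all 250 bases, and their probe sets (8180321 and 8180255) held identical values on every array. They were kept as 2 genes by the rule but are 1 measurement.

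Of the 56 genes, 43 had a mean intensity at or above the filter and were tested. The 13 below it were H1-1, H2AC1, H2AC8, H2AC14, H2BC1, H2BC3, H2BC10, H2BC13, H3C3, H3C8, H4C7, H4C9 and H4C16. H2AC1 and H2BC1 are known as testis histones. The differences of these dim genes are values near the low end of the array and ranged in mean from -0.16 (H2BC13) to 0.33 (H4C16).

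Histone genes as a group stayed near the scrambled array, as did most genes tested. No gene of the 43 differed by 1.5-fold with any single hairpin. Differences ran from -0.49 to 0.42 with hairpin H2, from -0.40 to 0.38 with hairpin H3 and from -0.24 to 0.49 with hairpin H4. Few of the 13813 genes reached 1.5-fold either: 775 lower and 137 higher with hairpin H2. With hairpin H3 there were 157 lower and 73 higher, and with hairpin H4 300 lower and 84 higher. At an adjusted p under 0.05 limma called 0 of 43 histone genes and 0% of the 13813 genes tested, and the smallest adjusted p was 0.9998. At an unadjusted p of 0.05, 1 of 43 passed (H2AC25), where 3.23% of all genes did. With 3 arrays against 1, an exact permutation test of a single gene cannot give a p below 0.25 (two-sided).

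By side, 11 of 43 genes (25.6%) were lower with all 3 hairpins, where 30.6% of all genes were. Those higher with all 3 hairpins numbered 7 (16.3%), where 16.9% of all genes were. Both shares were close to the background. At 1.5-fold with every hairpin, 0 were lower and 0 higher, against 0.311% and 0.0507% of all genes. At a ratio of 5 to 4 with every hairpin the histone count was also 0, but the share of all genes there was not taken. Leaving out a hairpin asks fewer arrays to lie on 1 side. Lower genes then numbered 17 without hairpin H2, 11 without hairpin H3 and 21 without hairpin H4. Of all genes, 40.1%, 40.6% and 39.4% were lower. Higher genes numbered 14, 9 and 7 in the same order, where 23.5%, 23.5% and 27.9% of all genes were. Centring each array on its median gave 6 lower and 8 higher, and 23.3% and 23.6% of all genes. The median of the mean differences was -0.045, beside -0.035 over all genes.

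**Figure D2:**
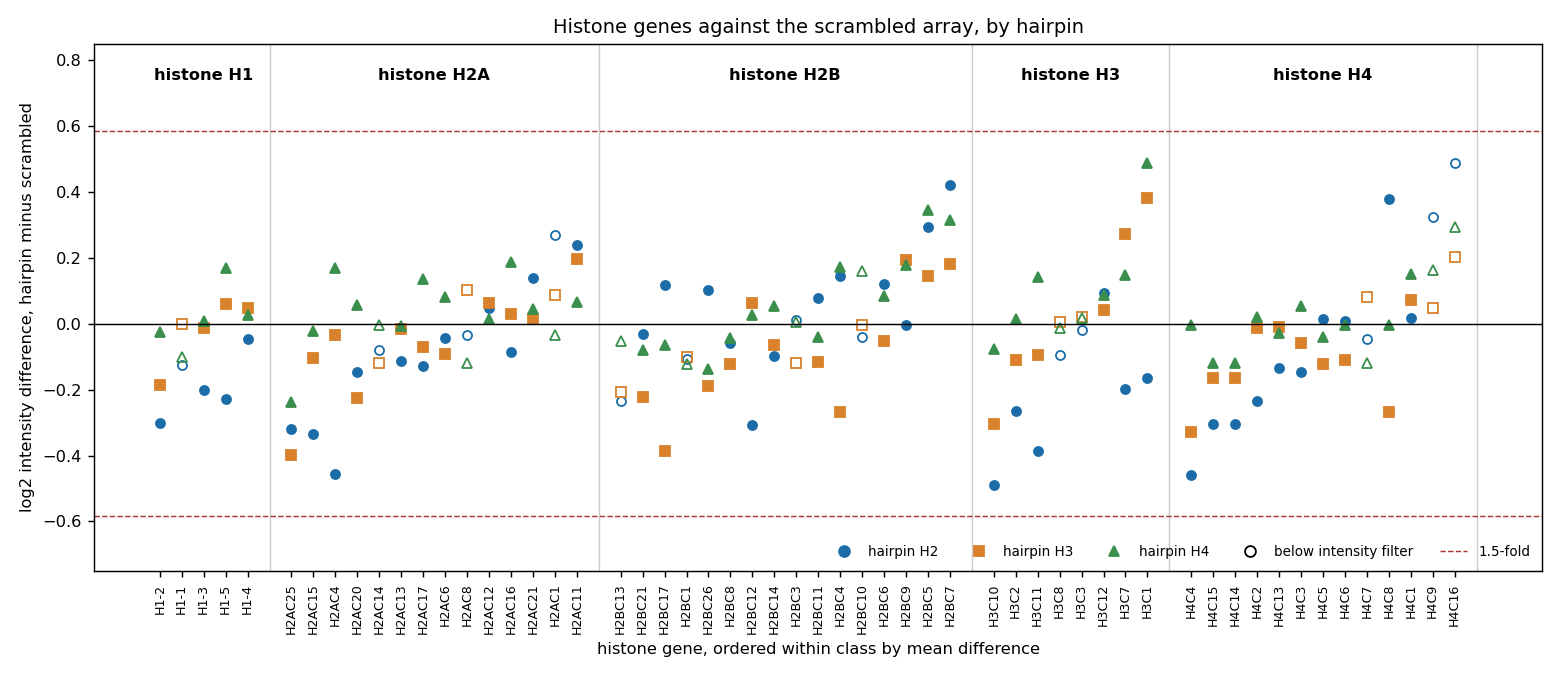
Log2 intensity difference from the scrambled array (y axis) of all 56 histone genes (x axis, by class and ordered by mean difference), 1 point per hairpin. Filled points are the 43 genes above the intensity filter, open points the 13 below it, and every filled point lies inside the dashed 1.5-fold lines.

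The hairpins differed in where the histone genes lay. Medians over the 43 genes were -0.098 with hairpin H2, -0.064 with hairpin H3 and 0.026 with hairpin H4, where all genes had -0.030, -0.021 and -0.046. The signs of these histone medians were the same after median centring, quantile normalization and cyclic loess. Hairpin H2 gave the lowest of the 4 intensities for 23 of 43 genes (53.5%, against 32.5% of all genes) and hairpin H3 for 13 (30.2%, against 20.5%). On the hairpin H4 array 0 of 43 genes were lowest, against 30.1% of all genes, and the count was 0 under each of these 3 scalings too. Without the intensity filter, 4 of 56 genes were lowest there. The genes share arrays and probes, so these counts are not independent draws, and no test was made of them.

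**Figure D3:**
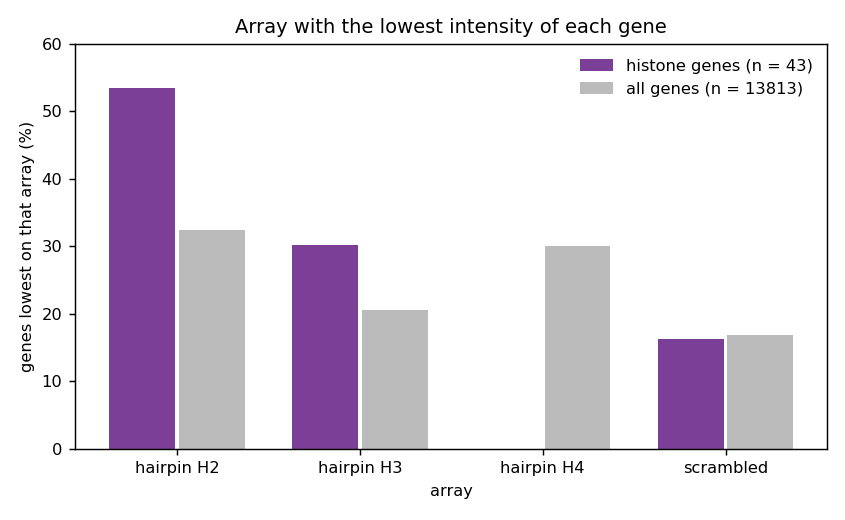
Share of genes (%) whose lowest intensity fell on each of the 4 arrays, for 43 histone genes (purple) and all 13813 genes (grey). No histone gene above the filter was lowest with hairpin H4, while 30.1% of all genes were.

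At a ratio of 5 to 4 or more, 5 of 43 genes were lower with hairpin H2 (15.4% of all genes were) and 2 were higher (5.42%). With hairpin H3, 3 were lower (5.91%) and 1 was higher (3.58%). With hairpin H4, 0 were lower (9.25%) and 2 were higher (2.97%). The median range over the 4 arrays was 0.27 on the log2 scale for histone genes and 0.27 for all genes.

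The classes separated most on hairpin H2. Its median was -0.21 for 4 H1 genes, -0.11 for 11 H2A genes, -0.23 for 6 H3 genes and -0.14 for 10 H4 genes, but 0.091 for 12 H2B genes. Of those 12, 5 were lower and 7 higher. Without the intensity filter these medians were -0.20 (H1), -0.0825 (H2A), -0.18 (H3), -0.047 (H4) and 0.004 (H2B). The median with hairpin H3 was 0.019 for H1, -0.035 for H2A, -0.090 for H2B, -0.026 for H3 (0.004 after median centring) and -0.12 for H4. With hairpin H4 the medians were 0.018, 0.057, 0.040, 0.11 and -0.003 in the same order, the last turning positive with each other scaling. Over the 3 hairpins the medians of the mean differences were -0.033 (H1), -0.020 (H2A), -0.031 (H2B), -0.019 (H3) and -0.054 (H4), and those of H2A, H2B and H3 were positive after median centring, those of H2A and H2B after quantile normalization too. The difference between classes was not tested.

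**Figure D4:**
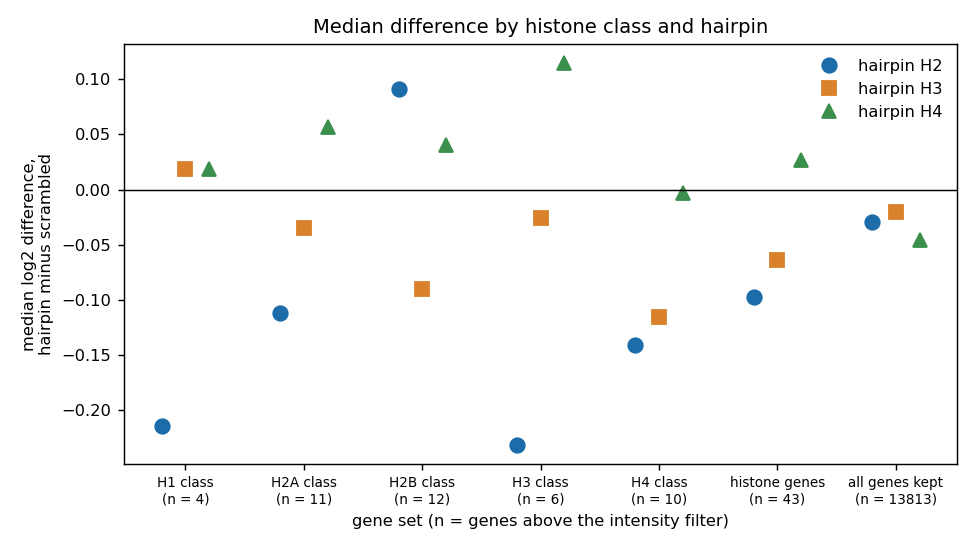
Median log2 difference from the scrambled array (y axis) for each histone class, all 43 histone genes and all 13813 genes (x axis), 1 point per hairpin. With hairpin H2 the H2B median lies at 0.091 (0.004 without the intensity filter) while the other 4 classes lie between -0.23 and -0.11.

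Linker histones, which compact the fibre, had 4 of 5 genes above the filter, and all 4 were lowest with hairpin H2. H1-4 had intensities of 17181, 18342 and 18058 with hairpins H2, H3 and H4 and 17730 with the scrambled hairpin (mean difference 0.010 ± 0.049, turning to -0.022 with cyclic loess). For H1-2 the readings were 2847, 3084 and 3449 against 3508 (-0.17 ± 0.14). H1-5 stood at 2071, 2532 and 2732 against 2427 (0.00083 ± 0.21). H1-2 alone was lower each time, and with hairpin H4 it nearly met the scrambled array. H1-3, at 426.7, 486.6 and 493.8 against 490.3 (-0.067 ± 0.12), stood apart only with hairpin H2.

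Core histone H2A genes lay on both sides. H2AC25, a member of the small chromosome 1 pair described below, was lower with every hairpin, at 110.0, 104.2 and 116.3 against 137.2 (mean difference -0.32 ± 0.080, limma SE 0.10, unadjusted p = 0.023 and adjusted p = 0.9998 in limma). Its mean log2 intensity was only 6.86, close to the filter at 6.78. H2AC15 read 4880, 5733 and 6065 against 6158 (-0.15 ± 0.16). H2AC11 was the highest of its class at 1160, 1126 and 1030 against 983.1 (0.17 ± 0.089). The 3 knockdown values of H2AC25, H2AC11 and H2AC15 each lay on 1 side of the scrambled value, which H2AC15 nearly met with hairpin H4. In the class, 3 of 11 genes were lower and 3 higher with every hairpin (27.3% each). Of all genes, 30.6% and 16.9% were. Among bright H2A genes, H2AC20 had 4797, 4543 and 5517 against 5305 (-0.10 ± 0.14), with the scrambled array between the hairpins. H2AC21 had 3625, 3324 and 3391 against 3289 (0.066 ± 0.066). The remaining tested H2A genes, H2AC4, H2AC6, H2AC12, H2AC13, H2AC16 and H2AC17, had mean differences from -0.11 (H2AC4) to 0.045 (H2AC16). H2AC4 was the most hairpin-dependent of them, at 735.1, 985.0 and 1134 against 1009.

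H2B, the dimer partner of H2A, held the highest members. H2BC7 read 3882, 3287 and 3601 against 2896, 1.24-fold higher on average (mean difference 0.31 ± 0.12, limma SE 0.13, unadjusted p = 0.068 and adjusted p = 0.9998 in limma). H2BC5, a gene known to give polyadenylated transcripts as well, read 869.8, 784.5 and 901.1 against 709.5, or 1.20-fold higher (0.26 ± 0.10, adjusted p = 0.9998 in limma). In both genes every hairpin was above the scrambled array, with hairpin H3 the closest to it. H2BC9 read 2906, 3332 and 3296 against 2914 (0.12 ± 0.11), so hairpin H2 matched the scrambled array and the other hairpins did not. H2BC12 read 6976, 9024 and 8806 against 8638 (-0.072 ± 0.21), low with hairpin H2 alone and at 0.046 without that array. The other tested H2B genes, H2BC4, H2BC6, H2BC8, H2BC11, H2BC14, H2BC17, H2BC21 and H2BC26, had mean differences from -0.11 (H2BC21) to 0.051 (H2BC6). With hairpin H3, H2BC17 (728.0 against 952.2) and H2BC4 (1458 against 1756) were the lowest of the class, and 7 of 12 H2B genes had their lowest value there.

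In the H3 class, which forms the core tetramer with H4, 5 of 6 tested genes were lowest with hairpin H2. H3C10 read 265.8, 301.7 and 353.3 against 372.7 (mean difference -0.29 ± 0.21), below the scrambled array each time. H3C1 read 342.7, 500.5 and 539.1 against 384.2 (0.24 ± 0.35), with hairpin H2 below and the other hairpins above the scrambled array. H3C2 had 6826, 7603 and 8279 against 8202 (-0.12 ± 0.14). H3C10 and H3C1 thus had the same order of hairpins but different positions of the scrambled array. H3C11 read 6051, 7403 and 8728 against 7904 (-0.11 ± 0.26), turning to 0.024 without hairpin H2. H3C7 read 886.0, 1227 and 1127 against 1016 (0.074 ± 0.24), turning to -0.024 without hairpin H3. H3C12 was slightly higher with every hairpin (0.074 ± 0.027), at a low intensity of 131.4 on the scrambled array.

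H4, the other part of the tetramer, is the most uniform class in protein sequence, and 4 of its 10 tested genes were lower with all 3 hairpins (30.6% of all genes were). They were H4C4, H4C13 and the pair H4C14 and H4C15, 3 separate measurements. H4C4 read 335.6, 367.3 and 460.0 against 460.9 (mean difference -0.26 ± 0.23), low with hairpins H2 and H3 and level with hairpin H4. The shared reading of H4C14 and H4C15 was 6689, 7359 and 7597 against 8253 (-0.20 ± 0.096, adjusted p = 0.9998 in limma), below the single scrambled value each time. Other probe sets, which list both symbols, had a mean difference of -0.015 ± 0.16. H4C3 read 10307, 10955 and 11832 against 11406 (-0.050 ± 0.100), and H4C5 read 8663, 7883 and 8341 against 8580 (-0.050 ± 0.069), both with the scrambled array between hairpins. H4C8 differed most between hairpins, at 4147, 2652 and 3185 against 3191 (0.036 ± 0.32). H4C1 was higher with every hairpin (0.080 ± 0.068) and H4C13 lower (-0.058 ± 0.067). H4C2 and H4C6 had mean differences of -0.076 and -0.034.

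Position in the genome was compared over the 51 genes with a promoter entry, taking starts less than 500000 bases apart as 1 locus. The largest locus, on chromosome 6 from 25726527 to 26285784, held 28 genes, 19 of them tested, with medians of -0.045, -0.053 and 0.026 with hairpins H2, H3 and H4. A second chromosome 6 locus (27807923 to 27893435, 9 of 11 tested) had -0.13, -0.064 and -0.007. A small one between them (27132793 to 27147108, 3 of 4 tested) had 0.079, 0.063 and 0.028, but the median of its mean differences was -0.027. On chromosome 1 the locus from 149832407 to 149888215 had 5 tested genes, 2 of them the identical H4C14 and H4C15, with -0.15, -0.17 and -0.080, and the pair H2AC25 and H2BC26 had -0.11, -0.29 and -0.19. H4C16, alone on chromosome 12, was below the filter. The loci were not tested against each other.

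An arrangement found among H2A and H2B genes is the head-to-head pair, where the genes are transcribed away from a shared promoter. In all, 9 such pairs were found from windows that overlap on opposite strands, sharing 214 to 247 of 250 bases, and both genes were tested in 5. In 3 of these 5 the mean differences of the partners had the same sign, and in 0 of 5 were the partners on the same side with every hairpin. H2AC25 differed by -0.32, -0.40 and -0.24 with hairpins H2, H3 and H4, whereas its partner H2BC26 differed by 0.10, -0.19 and -0.14. H2AC11 differed by 0.24, 0.20 and 0.067, and its partner H2BC11 by 0.079, -0.12 and -0.041. H2AC20 and H2BC21 were the closest of the 5 pairs in mean difference, at -0.15, -0.22 and 0.057 and at -0.031, -0.22 and -0.080. Partners lay on the same side with 2 hairpins in the pairs of H2AC25 and of H2AC20, and with 1 hairpin in that of H2AC11.

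**Figure D5:**
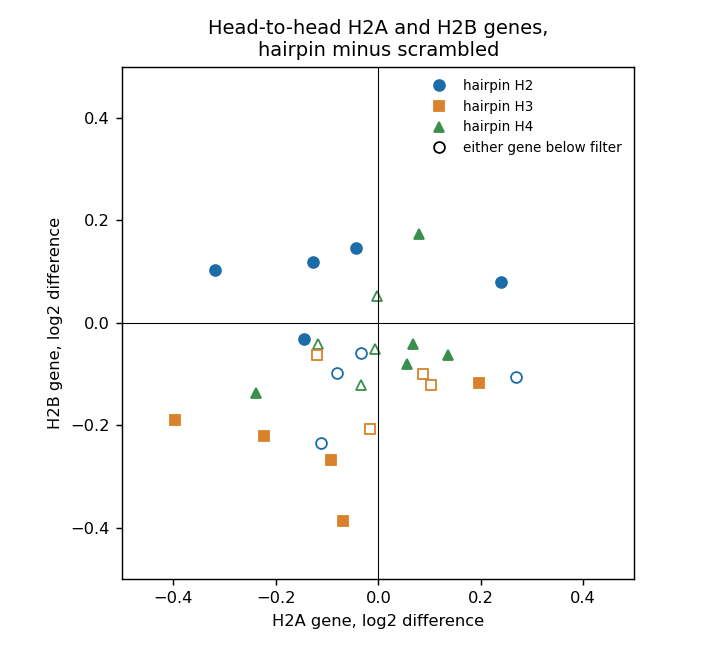
Log2 difference from the scrambled array of the H2A gene (x axis) and the H2B gene (y axis) of 9 head-to-head pairs, 1 point per hairpin and pair. Filled points are the 5 pairs with both genes above the filter, and points occur in quadrants of unlike sign as well as like sign.

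Among tested genes with a promoter entry, the 17 with an octamer had medians of -0.031, -0.064 and 0.067 with hairpins H2, H3 and H4, and the 21 without had -0.20, -0.11 and -0.003. The octamer follows class, and within the H2A class 7 genes with it had -0.085 with hairpin H2 and 3 without had -0.32. Within the H2B class the order was the other way, with 0.037 for 10 genes with it and 0.20 for 2 without. Of the 5 genes with the ZFX motif core, H2BC5 (0.26), H2BC8 (-0.074) and H3C10 (-0.29) were tested and lay on different sides.

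Genes around histone supply were read from lists chosen with earlier results of these data known. In limma 0 members of any list passed over all genes. The counts below stand against 30.6% of all genes lower and 16.9% higher with every hairpin. Replication-independent and variant histones had 3 of 10 lower (30.0%) and 1 higher (10%) with every hairpin (median -0.050). H1-8, an oocyte linker histone, had the largest difference (0.21 ± 0.064), before MACROH2A2 (-0.18 ± 0.22) and H3-3B, which encodes the replacement histone H3.3 (-0.13 ± 0.14). Among 26 genes of histone gene transcription and mRNA 3′ end formation and decay, 7 were lower (26.9%) and 6 higher (23.1%), with a median of 0.002. CPSF3, the endonuclease that cuts histone pre-mRNA, was higher with every hairpin (0.25 ± 0.044). XRN1, the 5′ exonuclease, and DCP2, the decapping enzyme, were lowest with hairpin H2 and near the scrambled array with hairpin H4 (-0.29 ± 0.31 and -0.27 ± 0.28).

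Of 24 histone chaperone genes 10 were lower (41.7%) and 6 higher (25%) with every hairpin (median -0.097). The replicative helicase subunit and H3-H4 binder MCM2 differed by -0.35 ± 0.11, and CHAF1B and CHAF1A, subunits of chromatin assembly factor 1, by -0.25 ± 0.23 and -0.23 ± 0.097. In S phase genes 18 of 39 were lower (46.2%) and 4 higher (10.3%), with medians of -0.17, -0.045 and -0.067 with hairpins H2, H3 and H4. GINS1 (-0.43 ± 0.14), UHRF1 (-0.41 ± 0.19) and DUT (-0.23 ± 0.16) led them. On hairpin H4, the S phase median of -0.067 lay near that of all genes (-0.046), whereas histone genes had 0.026. The part of either in the other was not tested. Of 20 mitosis genes 4 were lower (20.0%) and 4 higher (20.0%), with a median of 0.013 (by hairpin -0.053, 0.012 and 0.038), led by BUB1 (-0.29 ± 0.12), PLK1 (0.19 ± 0.017) and AURKB (-0.19 ± 0.20).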

How the data were processed

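The authors used RMA, according to the submitters' processing notes, and deposited a linear intensity for each probe set and array. RMA's version and the genome build were not given in the sources used here. The planned design assumed log2 values, so log2 of each deposited intensity was taken. Of 33297 probe sets, 19460 had 1 symbol in the platform annotation, and per gene the one with the highest mean was kept. Genes below the 25th percentile of mean log2 intensity were left out, leaving 13813. limma 3.58.1 in R 4.3.3 (lmFit, eBayes with an intensity trend) compared 3 knockdown arrays with 1 scrambled array, with Benjamini-Hochberg adjustment over all genes kept, on 2 residual degrees of freedom. The lone control is taken to vary as the knockdown arrays do. The fit was tested on simulated data. Gene numbers of all 56 members matched RefSeq. Members, lists and classes were chosen with earlier results of these data known. The genes chosen by rule to have their value on each array given are ZFX and, per class, the 3 brightest and the 3 with the largest mean difference among genes kept. Members at 1.5-fold with every hairpin were to be added (0 were). From each other list, the 3 with the largest mean difference were named. H2AC4, H2BC4, H2BC17 and H4C8 were named after their values were seen. Alternatives were other scalings, filters and probe set rules and leaving out each hairpin. Pandas 2.3.3, Python 3.11.15 and matplotlib 3.10.9 were used.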

Additional observations from a re-analysis of the deposited data

How the results depend on the processing

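Under 10 alternatives no gene of the series passed the limma threshold, so the count of 0 histone genes there is not particular to them. Genes lower with every hairpin, 11, became 6 with each array centred on its median, 7 with the filter at the 50th percentile, and 11 to 21 when 1 hairpin was left out. Of all genes, 23.3%, 31.8% and 39.4% to 40.6% were lower in these settings. Genes higher with every hairpin, 7, became 4 at the 50th percentile and 7 to 14 with 1 hairpin left out, where 15.7% and 23.5% to 27.9% of all genes were. Genes lowest with hairpin H3, 13, became 8 at the 50th percentile, and those lowest with hairpin H4, 0, became 4 without the filter, with other genes tested in each case. Why centring lowers the count was not tested. All class medians moved by less than the SD of the hairpin medians, but 4 of them turned positive under some: H2A when centred (0.012), after quantile normalization (0.003), without hairpin H2 (0.029) and without hairpin H3 (0.004), H2B when centred (0.00073), after quantile normalization (0.001) and without hairpin H3 (0.023), H3 when centred (0.013) and without hairpin H2 (0.044), and H1 without hairpin H2 (0.019). Of 23 genes named by rule, 18 kept the sign of their mean difference under each alternative, and H1-4, H1-5, H2BC12, H3C7 and H3C11 did not. Counting identical probe sets once and the counts of lowest arrays were chosen after seeing the data. No paired analysis was possible because the control group has 1 array. Signal over background could not be examined, since the deposited table has no background values, and 1 scrambled array limits every comparison.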

Other observations

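Probe sets with several symbols read histone genes that cannot be named 1 by 1, some of them members already counted above. In all, 20 probe sets carried at least 1 symbol of the class rule and another symbol, and in 14 of them every symbol was of that rule. Those 14 held 11 distinct sets of values, with median differences of -0.26, -0.14 and -0.008 with hairpins H2, H3 and H4. Of the 11, 5 were lower and 1 higher with every hairpin, where 30.6% and 16.9% of all single-symbol genes above the filter were. The lower ones were all shared by H3C13, H3C14 and H3C15 or by H4C11 and H4C12. They are repeated readings of the same genes, so their count cannot be set against a share of genes. Both probe sets shared by H4C11 and H4C12 were lower each time. The first read 1389, 1591 and 1699 against 1832 with the scrambled hairpin (mean difference -0.24 ± 0.15, SD, n = 3), and the second read 1651, 1875 and 2096 against 2209 (-0.24 ± 0.17).

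The 4 probe sets shared by H3C13, H3C14 and H3C15 were also lower with every hairpin, and 2 of them held the same values, 4843, 5603 and 5755 against 5960 (-0.15 ± 0.13). The probe sets shared by H2AC18, H2AC19, H2AC20 and H2AC21 read 4275, 3902 and 4757 against 4705 (-0.13 ± 0.14), low with hairpins H2 and H3. In contrast, the probe set shared by H3C6 and H3C11 read 293.2, 235.8 and 221.4 against 213.4 (0.22 ± 0.21), higher each time, while H3C11's own probe set was lower with hairpin H2. A separate pair of identical probe sets shared by H4C14 and H4C15 read 1327, 1072 and 1125 against 1182 (-0.015 ± 0.16), above the scrambled array with hairpin H2, where the single-symbol reading was below it with every hairpin. Probe sets listed for the same gene thus went different ways with the same hairpin. Cross-reading between gene copies was not tested, since no probe sequences were used here.

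Without the intensity filter, H4C16 had the largest mean difference of the 56 genes, at 124.1, 101.8 and 108.6 against 88.5 with the scrambled hairpin (0.33 ± 0.15, SD, n = 3). It lies alone on chromosome 12 and was singled out after its values were seen.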
